A study of Mus musculus with 3 samples.

Results

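The genes described here are the axon guidance ligands and receptors of the mouse: semaphorins and their plexin and neuropilin receptors, ephrins and Eph receptors, Slits and Robos, and netrins with their receptors Dcc and the Unc5 family. Members were taken by gene symbol from the protein-coding genes of the GENCODE M21 annotation, which gave 71 of 21938 genes, 35 of them ligands and 36 receptors. The symbol rule also takes Unc50 and Unc5cl, which are not guidance receptors and are described apart where they matter. Argonaute 2 (Ago2), the protein that carries miRNAs to their targets, was immunoprecipitated with an anti-Ago2 antibody from UV-crosslinked N2A cells, and the RNA held by it was sequenced (HITS-CLIP). N2A is an immortalised mouse neuroblastoma line and not a primary neuron. The data are 3 libraries of 1 group, untreated (basal) N2A cells, crosslinked at 400 mJ/cm2 and then at 200 mJ/cm2, with no control immunoprecipitation among the samples used here. The labels do not say whether the replicates were separate cultures, so p-values measure only the spread between these libraries, which may be technical.

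Guidance molecules steer growing axons by attraction or repulsion. Slits act through Robos, semaphorins through plexins and neuropilins, ephrins through Eph receptor kinases, and netrins attract through Dcc and repel through Unc5 receptors. A miRNA guides Ago2 to a messenger RNA mainly by pairing of its seed, bases 2 to 8, with the 3' untranslated region (3'UTR), so a peak there is read as a stretch of transcript held by Ago2.

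The sites that all 3 libraries shared are shown first, because they are where a peak in every library and a match to a listed miRNA family coincide. A match is a description and does not show that the miRNA was bound there. A common region is a stretch of at least 8 nt of a 3'UTR covered on the gene's own strand in all 3 libraries. Matches to the seeds of 28 families, read on the RNA strand only, were found 4 times in the common regions of guidance genes. Each site is printed 5' to 3' as DNA of the mm10 genome with the seed match in capitals. An A that follows the match and completes an 8-nt site is also in capitals.
Nrp2, match to miR-9-5p (8mer), chr1:62799134-62799140, plus strand: aaaggtcaaaatctACCAAAGA
Efna5, match to miR-142a-5p, chr17:62605936-62605942, minus strand: cattatttagatatACTTTATg
Sema4b, match to miR-15/16-5p, chr7:80225748-80225754, plus strand: cttccgccttactcTGCTGCTg
Unc5c, match to miR-137-3p, chr3:141829419-141829425, plus strand: cttttgttttagttAGCAATAc

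The miRNAs whose seeds these sites match are printed from RefSeq (GRCm38.p6) with bases 2 to 8 in capitals, and no pair of them shares a seed.
mmu-miR-9-5p: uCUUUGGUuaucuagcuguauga
mmu-miR-142a-5p: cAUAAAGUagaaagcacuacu
mmu-miR-16-5p: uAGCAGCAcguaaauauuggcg
mmu-miR-137-3p: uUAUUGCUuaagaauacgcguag

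The libraries held 711377, 498071 and 829936 peaks in replicates 1, 2 and 3, with median widths of 83, 84 and 85 nt. The number of reads behind a peak is unknown, and the peak scores were close to constant, so no peak was ranked above another. Among markers of the labelled cell type, 12 of 20 neuroblastoma and neuronal genes carried 3'UTR peaks in every library, among them Hand2, Mycn and Elavl4, while Th and Nefl had none in any library, and the shares of all genes in the same 3'UTR length classes gave 5.33. The same count was 1 of 10 for myeloid markers (Ptprc; 2.00 from the length classes), 3 of 10 for astrocyte (3.46), 3 of 10 for oligodendrocyte (3.15), 0 of 10 for hepatocyte (1.60) and 0 of 10 for endothelial markers (2.53). Of the summed 3'UTR length of the 20 neuronal markers, 14.3%, 33.0% and 39.9% was covered in replicates 1, 2 and 3. For the other lists this share ranged from 1.68% to 12.8% (astrocyte), 1.17% to 8.59% (endothelial), 1.95% to 7.06% (oligodendrocyte), 2.37% to 4.28% (myeloid) and 0% to 0.308% (hepatocyte). Peaks do not measure RNA level, and a marker without peaks may be expressed but not held by Ago2. In bulk cells, fewer cells that express a gene and less of its RNA per cell cannot be told apart.

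A same-strand 3'UTR peak was present in all 3 libraries for 21 of 71 guidance genes, or 29.6%, where the share over 21028 protein-coding genes with a 3'UTR was 23.9%. A peak in at least 1 library was present for 50 members (70.4%, against 61.9% of all genes). Guidance genes have long 3'UTRs, with a median of 1606 nt against 960.5 nt over all genes, and long 3'UTRs hold peaks more often. Adding up the shares of all genes in 5 equal classes of 3'UTR length gave 23.3 members where 21 were seen, so the count did not stand above its background. Most of the 21 came from the longest class, with 14 of 26 members, while the class of 1305 to 2385 nt held 1 of 15 members where 33.7% of all genes in it had a peak in every library.

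**Figure D1:**
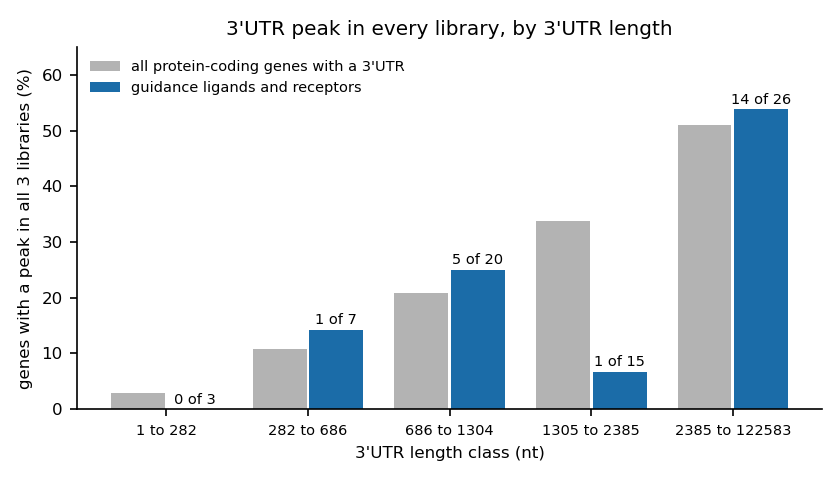
Bars give the percentage of genes with a same-strand 3'UTR peak in all 3 libraries in each of 5 equal classes of 3'UTR length (nt), for all protein-coding genes (grey) and for the guidance ligands and receptors (blue, with counts). The share over all genes rises from 2.88% to 51.0% with length, and the guidance genes follow it except in the class of 1305 to 2385 nt, with 1 of 15.

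On the ligand side, 10 of 35 genes had a peak in every library and 7 had none in any (23.9% and 38.1% of all genes). They were the semaphorins Sema4b, Sema4d, Sema6a, Sema6d and Sema7a, the ephrins Efna5 and Efnb2, the Slits Slit2 and Slit3, and the netrin Ntn3. The 3'UTR of Ntn3 overlaps Tbc1d24 on the same strand, so its peaks cannot be assigned to Ntn3. On the receptor side (36 genes, with Unc50 and Unc5cl), 11 had a peak in every library and 14 had none (23.9% and 38.1% of all genes). They were Plxna1, Plxna2, Plxna3, Plxna4, Plxnb2 and Plxnd1, the neuropilin Nrp2, the Eph receptor Ephb2, and Unc5b, Unc5c and Unc5d.

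Families are small, and their counts are a description with no test, to be read against the 23.9% of all genes. Plexins had 6 of 9 members with a peak in every library (2.86 from the shares of their length classes) and Unc5-named genes 3 of 6 (2.06). Eph A receptors had 0 of 9 (3.06), Robos 0 of 4 (1.29), and Dcc, a single gene, had none. Semaphorins had 5 of 20 (6.70), A ephrins 1 of 5 (1.47), B ephrins 1 of 3 (1.19), Eph B receptors 1 of 5 (1.37), netrins 1 of 4 (1.39), neuropilins 1 of 2 (0.618) and Slits 2 of 3 (0.826). Members with a 3'UTR longer than 1606 nt and no peak in any library were Epha5, Epha8, Epha10, Ephb1, Robo1, Robo4, Plxnb1, Ntn1 and Sema3c. Epha5 had the longest of these 3'UTRs, 4281 nt, and Ntn1 had 3642 nt. Unc5cl, taken only by its symbol, had 0 peaks in each library, and Unc50 had 1, 4 and 0.

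Netrin receptors. Unc5c, a repulsive netrin receptor, carried the most 3'UTR peaks of all members, 29, 33 and 48 in replicates 1, 2 and 3, and they covered 39.0%, 49.8% and 65.2% of its 6352-nt 3'UTR. The opposite strand of the same stretch held 2, 1 and 2 peaks. Unc5b, the related receptor known from axons and vessels, had 4, 12 and 18 peaks with none on the opposite strand in any library. All 3 libraries were high on the gene's own strand for both receptors, and replicate 1 was the lowest of them. Unc5d had 2, 1 and 1 peaks against 0, 2 and 1 on the opposite strand, so its strands overlapped. Dcc, the attractive netrin receptor, had 1 peak in replicate 1 and 0 in the others, and that single wide peak covered 56.4% of the 3'UTR. Its opposite strand had 2, 0 and 1.

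Semaphorin receptors. Plxna1, a plexin that pairs with neuropilins to receive secreted semaphorins, had 6, 15 and 19 peaks and none on the opposite strand. Plxna4 had 10, 10 and 5 peaks against 1, 0 and 0 on the opposite strand. Plxnb2, a receptor of class 4 semaphorins, had 1, 3 and 5 peaks on a short 3'UTR of 732 nt, which covered 35.0%, 32.2% and 64.9% of it. In these 3 plexins every library had more peaks on the gene's own strand than on the other. Nrp2, a co-receptor of class 3 semaphorins, had 5, 10 and 11 peaks against 1, 0 and 1. Its relative Nrp1 had 1, 2 and 0 peaks on a 549-nt 3'UTR, where the opposite strand had 0, 2 and 0.

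Semaphorins. Sema6d, a transmembrane semaphorin, had 6, 16 and 8 peaks and none on the opposite strand in any library. Sema4d, a ligand of B plexins, had 1, 11 and 9 peaks against 0, 0 and 2, and replicate 1 lay far below the other libraries. Sema4b had 2, 5 and 9 peaks against 0, 0 and 1. Sema4c, whose 3'UTR is 900 nt long, had 0, 6 and 4 peaks, so it missed the count of genes with a peak in every library through replicate 1 alone. Of the 7 secreted class 3 semaphorins, 0 had a peak in every library, where the length classes gave 2.69. Sema3b (0, 1 and 1 peaks), Sema3e (0, 2 and 2) and Sema3g (0, 1 and 5) also missed through replicate 1 alone, and Sema3a had 0, 3 and 0.

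Ephrins, Eph receptors and Slits. Efna5, a membrane-anchored ligand of Eph receptors, had 5, 31 and 23 peaks against 0, 1 and 1, and they covered 15.2%, 78.0% and 62.1% of its 3'UTR. Slit2, a secreted repellent, had 5, 8 and 9 peaks against 0, 1 and 0. Ephb2, which has the longest 3'UTR of all members at 7783 nt, had 2 peaks in each library, and its opposite strand had 2, 0 and 0. Efna5 and Slit2 were high in all libraries, with replicate 1 the lowest, while Ephb2 was level across them and touched the opposite strand in replicate 1. Efnb2 had 2, 2 and 1 peaks against 1, 1 and 1, which makes it, with Unc5c, the pair of members with a peak on the opposite strand in every library (2 of 71, or 2.82%, against 2.63% of all genes).

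**Figure D2:**
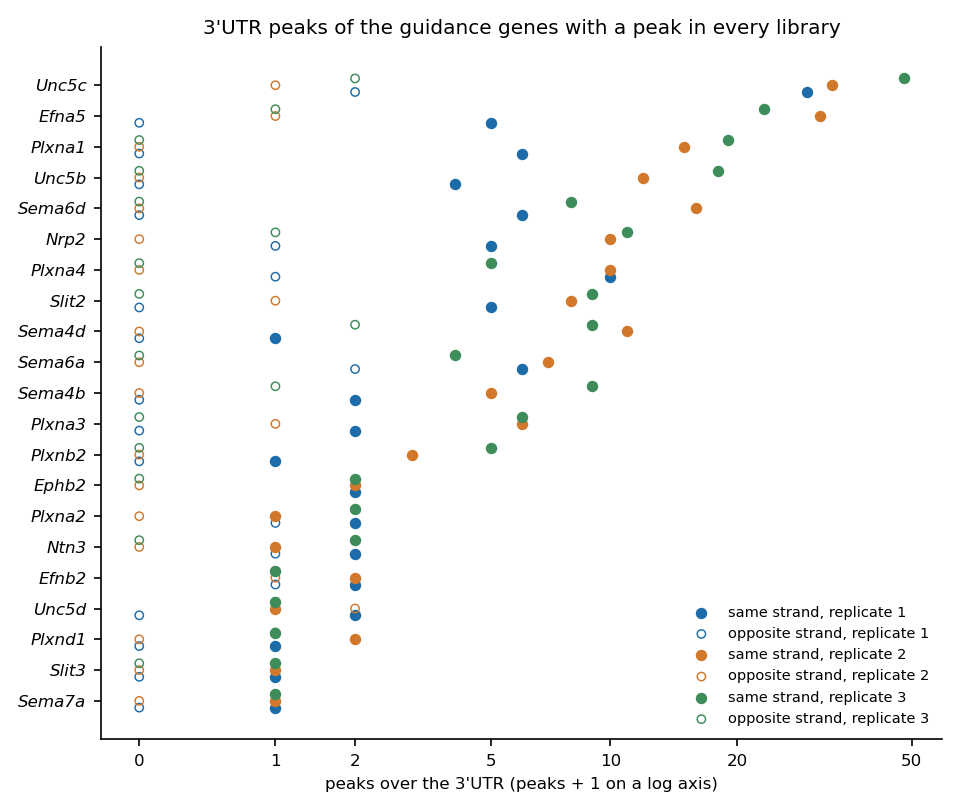
Peaks over the 3'UTR of the 21 guidance genes with a same-strand peak in every library, as peaks plus 1 on a log axis, with filled points for the gene's own strand, open points for the opposite strand and a colour for each replicate. Unc5c is highest with 29 to 48 peaks, and the genes at the foot of the plot have 1 or 2 peaks per library, close to the opposite strand.

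Because the series has only 1 group, the opposite strand of the same 3'UTR served as the background. RNA transcribed from a gene lies on its own strand whether or not Ago2 holds it. The comparison of strands therefore cannot separate RNA held by Ago2 from other RNA of the gene. Over all members, the 3'UTRs held 109, 217 and 215 same-strand peaks in replicates 1, 2 and 3, against 30, 16 and 23 on the opposite strand. The ratio was 3.63, 13.6 and 9.35, a mean of 8.85 ± 4.98 (SD, n = 3). All 3 libraries were above 1, and replicate 1 was the lowest. The mean log2 ratio was 2.95 ± 0.98, and the exact permutation test over libraries, two-sided, gave p = 0.25, the smallest value that 3 libraries allow.

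Coverage was then compared by gene, as the log2 ratio of same-strand to opposite-strand covered nt with 50 nt added to each, in a limma fit over 10487 genes. More coverage on the gene's own strand was called, at a limma adjusted p under 0.05, for 9 of the 48 members tested, or 18.8%, below the 27.3% called over all genes. Without adjustment 12 members passed (25.0%, against 40.2% of all genes). No member was called for the opposite strand (0 also without adjustment, against 1.30% of all genes), where 0.41% of all genes were. The count of 9 fell to 0 when replicate 2 or replicate 3 was left out, where limma called no gene of the whole fit. Without adjustment 9 members (18.8%) passed in each case, close to the 18.2% and 18.3% of all genes. For the opposite strand 1 member passed without replicate 3, and no share over all genes is given for that count. The count was 11 without replicate 1, where 33.6% of all genes were called.

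The 9 genes were 5 receptors and 4 ligands. Plxna1 had 504, 1343 and 1752 covered nt on its own strand and 0 on the other in each library, a log2 ratio of 4.48 ± 0.79 (SE, n = 3, limma adjusted p = 0.0087). Unc5c had 2480, 3163 and 4139 nt against 161, 82 and 165 (4.16 ± 0.77, limma adjusted p = 0.0088). Unc5b had 353, 962 and 1620 nt against 0 in each library (4.14 ± 0.80, limma adjusted p = 0.0089). For these receptors the lowest same-strand value lay above the highest opposite-strand value.

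Among the ligands, Sema6d had 545, 1368 and 735 nt against 0 in each library (4.12 ± 0.77, limma adjusted p = 0.0088). Slit2 had 415, 705 and 756 nt against 0, 81 and 0 (3.25 ± 0.78, limma adjusted p = 0.015). The strands did not overlap for either gene. The others called were Plxna4 (log2 ratio 3.45), Plxnb2 (2.84), Sema4b (2.64) and Sema6a (2.62), the last at a limma adjusted p of 0.0498. Plxnb2, Sema4b and Sema6a were no longer called, which left 6 members, with peaks trimmed by 30 nt on each side or with 200 nt added in place of 50. Sema6a was also lost with 10 nt added, with merged 3'UTRs and with genes covered in at least 1 library. Slit2 was lost without replicate 1 (limma adjusted p = 0.061), where Ephb2, Plxnc1 and Sema4c were gained. Plxnb2 was also not called with peaks of 86 to 200 nt only.

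Several genes with many peaks were not called. Efna5 had 481, 2462 and 1961 nt against 0, 1739 and 99, where 1 peak on the opposite strand of replicate 2 made up the 1739 nt (2.55 ± 0.88, limma adjusted p = 0.054). Nrp2 had 400, 911 and 853 nt against 82, 0 and 3325, where 1 peak on the opposite strand of replicate 3 spanned the whole 3'UTR (1.38 ± 1.09, limma adjusted p = 0.34). With only peaks of at most 1000 nt, a setting chosen after these values were seen, Efna5 (4.27), Nrp2 (3.40), Sema4d (2.79), Sema4c and Plxna3 were called as well, for 14 members in all, and 43.3% of all genes were. The share called rose over all genes under this setting, and Sema4c was gained with 0 opposite-strand nt in every library, so the part of wide peaks in these calls was not tested.

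**Figure D3:**
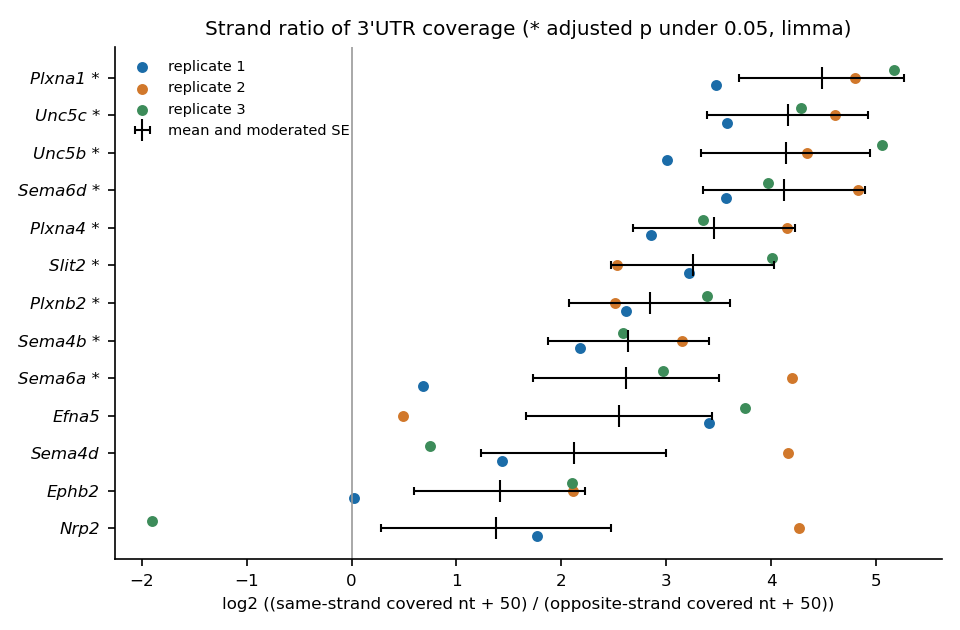
Log2 ratio of same-strand to opposite-strand covered nt of the 3'UTR (50 nt added to each) for 13 guidance genes, with a point per replicate and the mean with its moderated standard error in black; an asterisk marks a limma adjusted p under 0.05. Plxna1, Unc5c, Unc5b and Sema6d have all 3 replicates above 3, whereas Nrp2 runs from -1.90 in replicate 3 to 4.26 in replicate 2.

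Coverage in the same place was rarer than coverage in the same 3'UTR. Common regions were found in 11 members, or 15.5%, against 14.3% of all genes with a 3'UTR, and numbered 39 with a median length of 68 nt (9 to 126 nt). The median over the 7839 common regions of all genes was 69 nt. Unc5c held 16 of the 39 regions and 823 of their 2325 nt. Slit2 had 3 regions (244 nt), Nrp2 4 (240 nt), Efna5 3 (234 nt), Unc5b 2 (223 nt) and Plxna1 4 (191 nt), and Plxnb2, Ephb2, Sema4b, Sema6d and Sema4d had 1 or 2 each.

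**Figure D4:**
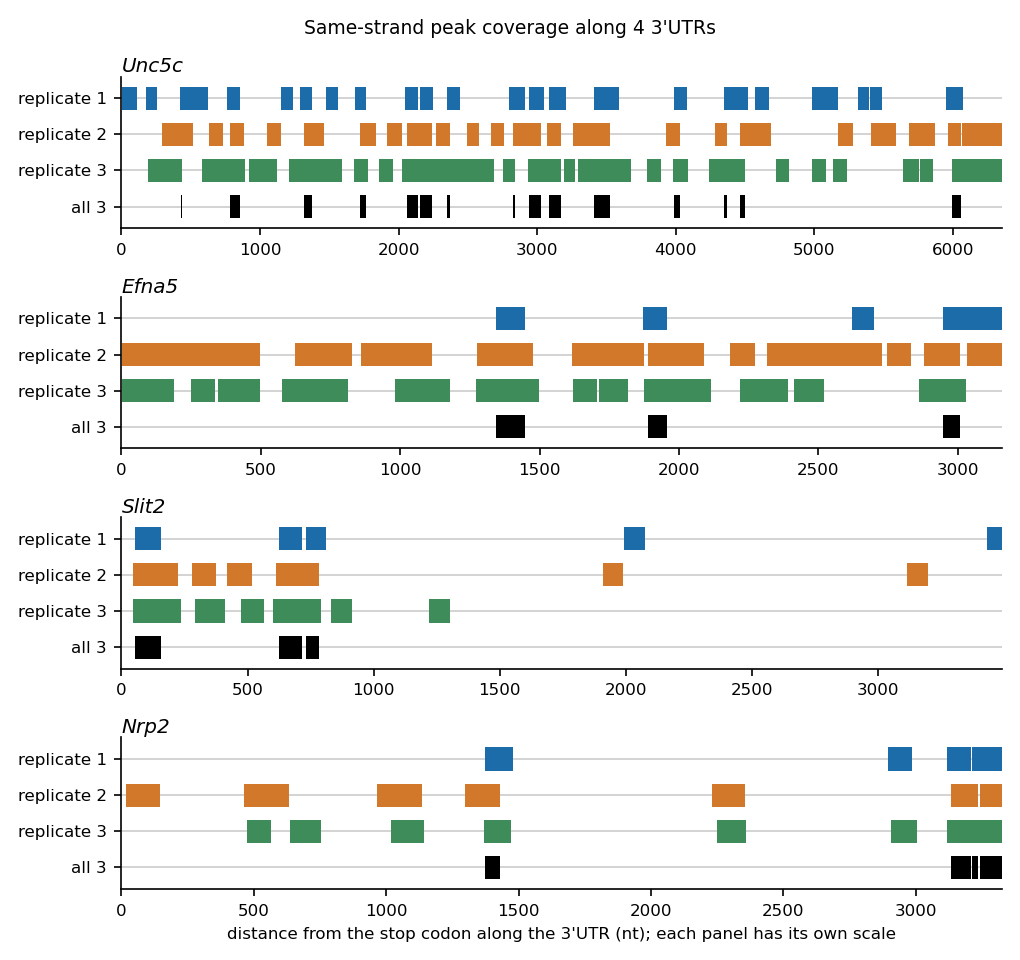
Same-strand peak coverage of the 3'UTRs of Unc5c, Efna5, Slit2 and Nrp2 in each replicate, and the stretches covered in all 3 (black), by distance from the stop codon in nt with a scale of its own per panel. Unc5c has 16 common regions along its 3'UTR, Slit2 has 3 within the first 782 nt, and Nrp2 has 3 of its 4 beyond 3134 nt, near the end at 3325 nt.

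The regions lay in different places from gene to gene. In Slit2 the regions ran from 53 to 155, 626 to 714 and 731 to 782 nt after the stop codon. In Nrp2, Plxna1, Plxnb2 and Unc5b the last region reached the annotated 3'UTR end. Of the members' 39 regions, 8 (20.5%) had their centre past 90% of the 3'UTR length, against 11.1% over all genes, and 4 (10.3%) reached the 3'UTR end, against 3.43%. With 4 such regions, 1 in each of 4 genes, the difference rests on few genes and was not tested.

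The regions were rich in A and T. The members' regions were 66.8% A or T and the remainder of those 3'UTRs 52.7%, where all genes had 64.2% and 57.5%. The share was higher inside than outside in 10 of 11 genes (79.9% of all genes with such regions), Sema4b being the exception (46.9% against 49.4%). The widest gap was in Unc5b, with 72.2% against 43.7%, and in Plxna1, with 68.6% against 43.4%. Lower-case (repeat-masked or low-complexity) bases made up 21.6% of the members' regions and 15.6% of the rest, where all genes had 17.9% and 16.6%.

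The 4 seed sites printed above are a small part of this sequence. They came to 1.72 sites per kb of the members' common regions against 3.16 per kb in the remaining sequence of those 3'UTRs, where all genes had 3.33 and 2.85, and with 4 sites no order can be read. The miR-142a-5p match in Efna5 (ACTTTAT, present in 1.77% of all common regions) lay 7.5 nt from the centre of a 104-nt region and inside the central part of the peaks, the peak less 30 nt at each side, in all 3 libraries. The miR-137-3p match in Unc5c (AGCAATA, 0.74% of regions) lay in the central part in 2 libraries. The miR-9-5p match in Nrp2 (ACCAAAG, 0.587% of regions) and the miR-15/16-5p match in Sema4b (TGCTGCT, 1.47% of regions) were not wholly inside the central part in any library. TGCTGCT shares 6 letters with ATGCTGC, the match to miR-103-3p. No match to miR-21a-5p (ATAAGCT) lay in a member's common region, and the members' 3'UTRs held 6.

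Replicate 1 set the limit of these sites. In stretches shared by replicates 2 and 3 alone, the members had 104 regions in 22 genes with 33 seed matches, 15 of them 8-nt sites, in 15 genes and 21 families. Over all genes, 30.3% had such a region, against 31.0% of members, and the matches came to 3.16 per kb inside and 2.78 in the remainder, where the members had 3.44 and 3.03. In 12 of the 33, the match lay in the central part of the peaks of both libraries. Unc5c held 5 of the matches (miR-30-5p, miR-155-5p, miR-137-3p, miR-138-5p and miR-153-3p), Sema6d 4 and Sema4c 4. The miR-181-5p family had 4 matches, in Nrp2, Unc5b, Plxna2 and Plxna4, and with 543 matches it also ranked 2 of 28 families over the regions of all genes.

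A pair of these sites is shown, chosen after the values were seen. The Sema4c site lies in an 84-nt region from 28 to 111 nt after the stop codon, which also holds 8-nt matches to miR-19-3p and miR-125-5p and a 7-nt match to miR-138-5p. The Slit2 site lies in an 83-nt region, not wholly inside the central part of the peaks of any library, and is the match to the miRNA whose precursor Slit2 itself carries in an intron.
Sema4c, match to let-7-5p (8mer), chr1:36549459-36549465, minus strand: tgcacaggcaccagCTACCTCA
Slit2, match to miR-218-5p, chr5:48304543-48304549, plus strand: gccaatactagcagAAGCACAt
mmu-miR-218-5p: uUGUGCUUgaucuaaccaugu

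Ago2 also holds the mature miRNA, so the hairpins inside guidance genes were examined. There were 7, all in introns: Mir218-1 in Slit2, Mir218-2 in Slit3, Mir7118 in Plxnb2, Mir6352 in Epha4, Mir7243 in Ephb1, Mir691 in Robo2 and Mir7011 in Sema4a. None had a same-strand peak in all libraries, where 160 of 1005 annotated hairpins did. Mir218-1 and Mir218-2 each had 1 peak in replicate 1 and 0 in the others. Both peaks had their central part over the 3p arm and not over miR-218-5p, and Mir218-2 also had 1 opposite-strand peak in replicate 2 and 1 in replicate 3. Mir7118 had 1 peak, in replicate 3, and the other 4 hairpins had none.

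Most peaks within guidance genes were not in the 3'UTR. By peak midpoint, introns held 83.7% ± 8.29 (SD, n = 3) of the members' same-strand peaks, the 3'UTR 8.16% ± 4.78, the coding sequence 5.78% ± 3.23 and the 5'UTR 0.703% ± 0.502. Over all protein-coding genes the introns held 71.0% ± 13.8 and the 3'UTR 15.1% ± 8.88. In each library the members' 3'UTR share (3.19%, 12.7% and 8.58%) was below that of all genes (7.38%, 24.8% and 13.0%).

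By midpoint, the coding sequence share of 5.78% compares with 9.91% ± 4.80 (SD, n = 3) over all protein-coding genes. The members' coding sequences held 69, 138 and 207 same-strand peaks against 32, 20 and 27 on the opposite strand. Plxnb2 had 3, 7 and 27, Plxna1 had 5, 6 and 20, and Slit2 had 11, 15 and 15. Unc5c had 3, 11 and 20, Sema4d 1, 8 and 17, and Unc5b 1, 12 and 14. For Plxna3, a plexin with a 3'UTR of 1147 nt, the coding sequence held 2, 4 and 14. Efna5, with many 3'UTR peaks, had 1, 6 and 1, and Plxna4 had 6, 5 and 2. Replicate 3 was the highest library for the plexins Plxna1, Plxna3 and Plxnb2 and for Unc5b, Unc5c and Sema4d. It was also the highest over all protein-coding genes, whose coding sequences held 13202, 34598 and 42416 peaks in replicates 1, 2 and 3.

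The members with the most same-strand intron peaks were Efna5, Unc5c and Slit2. Efna5 had 517, 192 and 331 same-strand intron peaks in replicates 1, 2 and 3, against 42, 14 and 32 on the opposite strand. Unc5c had 440, 175 and 331 against 28, 16 and 39. Slit2 had 326, 131 and 169 against 38, 21 and 38. In every library of these genes the same strand exceeded the opposite strand by at least 4.45 times, and the strands did not overlap.

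The strand ratio of intron peaks was fitted with limma over 11384 genes with at least 10 intron peaks, a test added after these values were seen. Like the 3'UTR comparison, it cannot separate RNA held by Ago2 from other RNA of the gene. More intron peaks on the gene's own strand were called for 3 of 52 members, or 5.77%, where 15.3% of all genes were, and 11 members passed without adjustment (21.2%, against 35.6% of all genes). The log2 ratios were 3.54 ± 0.37 for Efna5, 3.45 ± 0.40 for Unc5c and 2.59 ± 0.40 for Slit2 (SE, n = 3), each at a limma adjusted p of 0.037. No member was called for the opposite strand (0.395% of all genes), and 1 passed there without adjustment (1.55% of all genes). With any replicate left out limma called no gene, and 6 members passed without adjustment (11.5%, against 19.3% to 24.3% of all genes). A single member passed for the opposite strand without replicate 3, a count with no share over all genes to set beside it.

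Of the 32 members with at least 100 kb of intron, 11 (34.4%) had more intron peaks on their own strand in every library, against 47.5% of all such genes, and Efna5, Unc5c and Slit2 were among the 11. Sema6d had 195, 65 and 108 same-strand intron peaks against 82, 42 and 66, and Epha7 had 44, 20 and 28 against 19, 8 and 17, and neither was called (limma adjusted p = 0.17 and 0.11). In Dcc, Robo1 and Robo2 the ratio of the strands lay between 0.848 and 1.17 in every library. Dcc had 150, 90 and 120 same-strand intron peaks against 170, 91 and 131. Robo1, the Slit receptor, had 95, 45 and 81 against 112, 50 and 74 and, as above, no 3'UTR peak. Robo2 had 63, 48 and 61 against 57, 50 and 52. For these receptors the strands overlapped across libraries, with log2 ratios of -0.11, -0.09 and 0.10.

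Slit3, the relative of Slit2, had 138, 45 and 67 same-strand intron peaks against 80, 57 and 71, and only replicate 1 was higher on the gene's own strand. Plxna4 had 188, 36 and 64 against 52, 37 and 44, again with a gap mainly in replicate 1. Nrp1 had 72, 14 and 20 against 17, 8 and 5, higher on its own strand in every library (log2 ratio 1.52 ± 0.43, limma adjusted p = 0.063). Sema4d had 29, 24 and 71 against 15, 10 and 14 (1.45 ± 0.44, limma adjusted p = 0.072).

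**Figure D5:**
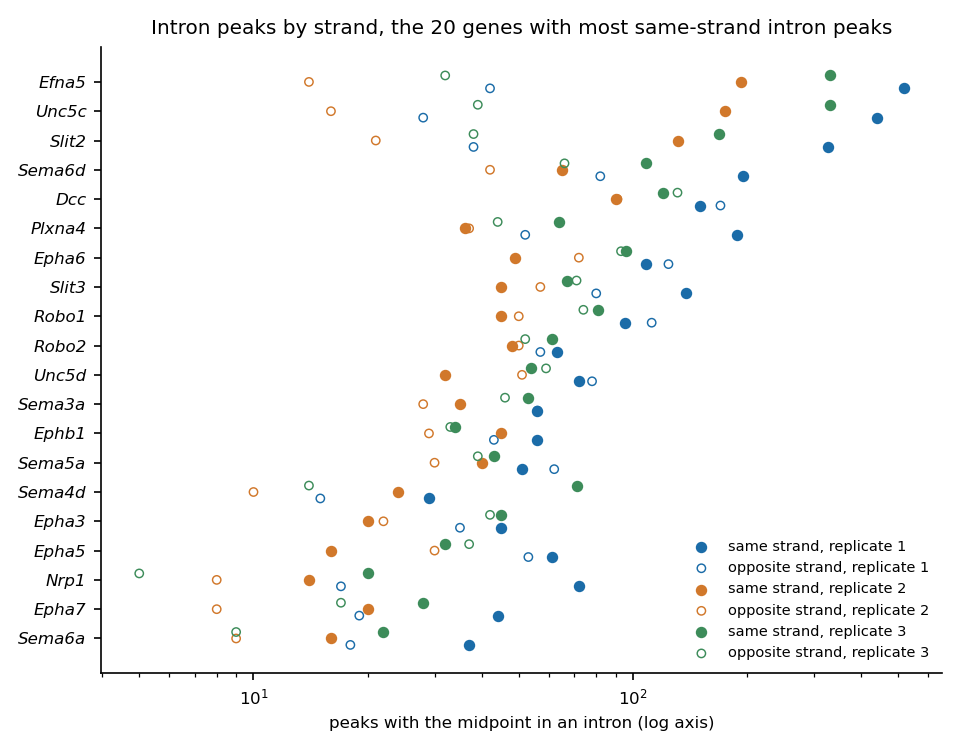
Peaks with their midpoint in an intron (log axis) for the 20 guidance genes with the most same-strand intron peaks, with filled points for the gene's own strand, open points for the opposite strand and a colour for each replicate. Efna5, Unc5c and Slit2 have filled points well above their open points in every replicate, whereas the points of Dcc, Robo1 and Robo2 lie close together.

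All of Efna5, Unc5c and Slit2 also had a 3'UTR peak in every library. Across the 54 members with at least 10 kb of intron, the intron strand ratio and the mean percentage of the 3'UTR covered had a Spearman correlation of 0.540 and a Pearson correlation of 0.761. This is a description across genes that share the same 3 libraries, and genes are not independent replicates.

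Other genes of the guidance pathways were taken from lists ordered by role. Of 85 signalling genes, 46 carried 3'UTR peaks in every library and 10 had none, and adding up the shares of their 3'UTR length classes gave 29.6. By role these were 11 of 16 kinases, among them Fyn, Src, Gsk3b, Rock1 and Rock2, where the length classes gave 5.44. Cytoskeletal and adaptor proteins such as Enah, Cfl1 and Dpysl2 came to 12 of 20 (7.45 from the length classes), guanine nucleotide exchange factors such as Trio, Tiam1 and Vav3 to 8 of 15 (4.60), and small GTPases such as Rac1, Cdc42 and Rhoa to 6 of 11 (3.47). GTPase-activating proteins, with 3 of 7 (2.75), and other guidance and co-receptor genes such as Neo1 and L1cam, with 6 of 16 (5.88), were close to their background. More same-strand coverage was called by limma for 28 of the 75 tested (27.3% over all genes) and more opposite-strand coverage for 0 (0.41% over all genes), also without adjustment (1.30%), and no gene was called without replicate 2 or replicate 3. These lists were not tested against the ligands and receptors, of which 21 of 71 had a peak in every library.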

How the data were processed

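The series holds 3 HITS-CLIP libraries of basal N2A cells in 1 peak table. The submitters' processing notes name FastQC, cutadapt, STAR and the mm10 build, without versions. The peak caller is not given in the sources used here. The authors deposited, per library, each peak's start, stop and strand and a score of 54.6 to 60, which was not used. Starts reach -30, and peaks were read as padded by 30 nt at each side.

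Members, lists and miRNA families were chosen with earlier results of these data known. Each gene was given the longest 3'UTR of a GENCODE M21 protein-coding transcript, and a peak counted with 1 nt of overlap on the 21 primary chromosomes. Strand ratios were fitted with limma 3.58.1 (R 4.3.3; intercept against 0, eBayes, Benjamini-Hochberg over all genes, adjusted p under 0.05) over genes covered in at least 2 libraries. On simulated data, the fit over 10487 genes recovered 95% of genes shifted by 4 on the log2 scale and 100% of those shifted by 6. It also called 30 of 10287 unshifted genes, 13.3% of its calls. The noise was independent between simulated libraries, and smaller shifts were not simulated. Recovery at ratios such as those of Sema6a (2.62) and Plxna4 (3.45) is therefore unknown. Intron ratios used peak counts with 1 added. Of 30 miRNA families, 28 matched the RefSeq table; miR-124-3p and miR-23b-3p did not. By rule, values are given for the 11 genes with a common region, every member with a peak in all libraries is named, and so are members with a long 3'UTR and no peak, hairpin hosts and Unc5cl. Other members given with values (Plxna3, Plxna4, Unc5d, Unc50, Dcc, Nrp1, Sema3a, Sema3b, Sema3e, Sema3g, Sema4c, Sema6a, Efnb2, Epha7, Slit3, Robo1 and Robo2) were chosen after their values were seen. Alternatives were other peak widths, overlaps, 3'UTR models, pseudocounts, filters and each replicate left out. Reads per peak are unknown, so no interval is given for a peak count.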

Additional observations from a re-analysis of the deposited data

How the results depend on the processing

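The count of 21 guidance genes with 3'UTR peaks in every library was 36 with a peak in at least 2 libraries, 11 with peaks of 86 to 200 nt only, 2 on the opposite strand, and 22 to 31 with a replicate left out. The 46 signalling genes became 2 on the opposite strand and 47 to 59 with a replicate left out. On the opposite strand the share over all genes was 2.63%. For the other settings no such share is given, so these counts cannot be set against a background. The 9 members called by limma for 3'UTR strand became 14 with peaks of 86 to 200 nt (61.2% of all genes), 14 with peaks of at most 1000 nt (43.3%; added after seeing the data) and 0 to 11 with a replicate left out. The log2 ratio of Nrp2 turned to -0.066 without replicate 2 and ran up to 3.02 with another replicate left out. The 3 members called for intron strand became 13 of 32 tested with peaks of 86 to 200 nt (60.9% of all genes) and 0 without any 1 replicate. The 3'UTR share of peaks, 8.16%, was 13.7% with peaks of 86 to 200 nt and 5.89% to 10.7% with a replicate left out. The 39 common regions became 23 with trimmed peaks, 21 with peaks of 86 to 200 nt and 48 to 104 with a replicate left out. The 4 seed matches became 1 when followed by A, 1 with trimmed peaks and 4 to 33 with a replicate left out. For these alternatives of regions and matches, values over all genes are given above only for stretches shared by replicates 2 and 3. The mean log2 strand split stayed between 2.54 and 5.53, and the count of hairpins with a peak in every library stayed at 0, in all alternatives run for them. For single genes, 105 of 141 alternatives kept direction and side of the threshold. The cause was not tested. No paired analysis was possible because there is only 1 group, so replicate numbers pair no samples across groups. The strands were compared within each library. Peak tables without reads limit what can be said of weakly bound genes.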
